A study of Mus musculus with 6 samples.

Results

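The 9 genes described here make up the core of antigen presentation by major histocompatibility complex (MHC) class I: the heavy chains H2-K1 and H2-D1, the light chain B2m, the peptide transporter genes Tap1 and Tap2, the loading factor Tapbp, and the immunoproteasome subunits Psmb8, Psmb9 and Psmb10. They were chosen by name, as all non-control spots annotated to one of the 9 symbols. They occupied 36 spots of 18 probes on each array, of 41174 non-control probes in all, and 17 of the 18 probes could be tested. Every one of the 9 genes had a tested probe, among 13333 genes tested. The study measured RNA of mouse satellite cells, the stem cells of skeletal muscle, taken in proliferation from female animals. The 3 Magic-F1 samples came from Magic-F1+/+ animals, whose titles carry the word Omo, and the 3 control samples have titles with the word MLC3F, neither of which the labels explain. Magic-F1 is an engineered factor derived from hepatocyte growth factor that activates the receptor MET. Age, strain, H2 haplotype, and the promoter that drives the transgene are not given for the groups in the sources used here. All 6 RNAs were spiked with viral polyadenylated transcripts, labelled with Cy3 and hybridised to 1 single-colour Agilent array each.

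In the class I pathway, the proteasome cuts cytosolic proteins into peptides, and the immunoproteasome is a form in which 3 catalytic subunits of the constitutive particle are replaced by Psmb8, Psmb9 and Psmb10. The TAP transporter, built from Tap1 and Tap2, carries the peptides into the endoplasmic reticulum, where tapasin (Tapbp) bridges it to new heavy chains and helps peptides to bind. The heavy chain needs B2m, a small invariant protein, to reach the cell surface, where cytotoxic T cells read the peptide. Interferon-gamma is the best known inducer of all 9 genes, and resting muscle fibres are known for low class I levels.

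Most transcripts on the arrays differed between Magic-F1 and control samples (89.1% of tested genes, limma adjusted p of 0.05). The arrays of replicates 1 and 3 of both groups shared slide 1 and those of replicate 2 shared slide 2. Spot signals had a 75th percentile of 341 to 356 on the Magic-F1 arrays and 275 to 292 on the control arrays. Precision is limited by the number of arrays, 3 in a group. The series speaks of biological triplicates but names no animals, so the p-values here reflect the variation among these samples, part of which may be technical. Markers of other cell types than the labelled one were high in both groups, macrophage markers in Magic-F1 and neutrophil markers in control samples, and the satellite cell markers were the lower ones in Magic-F1 samples. Of 10 tested satellite cell and myoblast markers 10 were lower and 0 higher, and their summed level was 68.0 to 69.9 times the 75th percentile on Magic-F1 arrays, against 651 to 691 times on control arrays. The satellite cell factor Pax7, named after its values were seen, did not clear the background on the Magic-F1 arrays and was at least 4.58-fold lower (adjusted p = 0.0004), with a log2 change of −0.77 with normexp background. Of 17 macrophage markers 16 were higher and 1 lower, with summed levels of 2548 to 2659 on Magic-F1 and 481 to 508 on control arrays. The lower one was Lyz2, named after its values were seen, and its other probe rose by 2.97. Lyz2 made up most of the control sum, at a mean log2 of 8.48, against 5.80 for the next, Cd14. Of 9 neutrophil markers 9 were lower, with sums of 0.58 to 0.62 on Magic-F1 and 587 to 631 on control arrays. All 9 cleared the background on every control array, and 4 of them did not clear the background on the Magic-F1 arrays. Beside these marker counts, 40.5% of all tested genes were called higher and 48.6% lower. In RNA of whole samples, fewer cells of a type and less RNA per cell cannot be told apart. The part of these marker shifts in the class I values was not tested.

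Several of the results turn on probes that lie in closely related or neighbouring stretches, so their sequences are given first. Class I heavy chain genes resemble each other, and probes may share runs of bases. Below are the coding-strand sequences of 2 H2-K1 probes and 2 H2-D1 probes that read open across their length, with the longest run of at least 20 bases shared with a probe of another class I gene in capitals.
H2-K1 A_52_P50496: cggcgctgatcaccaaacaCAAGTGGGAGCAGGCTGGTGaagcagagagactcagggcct
H2-K1 A_52_P474242: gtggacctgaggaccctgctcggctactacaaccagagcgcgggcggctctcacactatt
H2-D1 A_52_P313279: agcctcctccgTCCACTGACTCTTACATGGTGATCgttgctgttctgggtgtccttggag
H2-D1 A_51_P496996: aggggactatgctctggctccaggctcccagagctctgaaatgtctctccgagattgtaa
The run of 20 bases in A_52_P50496 is also in a probe of H2-Q10, and the run of 24 bases in A_52_P313279 is also in a probe of H2-Q2. The longest run that A_52_P474242 shares is 16 bases, with a probe of H2-Bl, and that of A_51_P496996 is 8 bases. Only probes of the array were compared, so matches of a probe to transcripts of other class I genes were not checked. In mm9 coordinates of the files the probes lie on chromosome 17, A_52_P50496 at 34136288 to 34136347 and A_52_P474242 at 34136478 to 34136724 on the minus strand, and A_52_P313279 at 35403132 to 35403191 and A_51_P496996 at 35403437 to 35403669 on the plus strand. A range longer than the 60 bases of a probe spans a gap in the genome.

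Counted by the brightest tested probe of each gene, 6 of the 9 genes were higher in Magic-F1 cells, 0 were lower, and 3 did not pass the test (limma, Benjamini-Hochberg adjusted p of 0.05 over all tested probes). Over all tested genes of the array 40.5% were called higher and 48.6% lower. The values of the groups did not overlap for 6 of the 9 genes, against 90.6% of all tested genes, so separation of the groups as such was no more common among the 9. Changes are given as log2 of Magic-F1 over control. The median change of the 9 was 0.58, beside −0.17 over all tested genes. Scaling to the spiked-in transcripts put the medians at 1.02 for the 9 genes and 0.27 for all genes, and the mean of all probes of a gene put that of the 9 at 0.87. Over probes, 14 of 17 were higher, 0 were lower and 3 were not called, where of all tested probes 87.7% were called, 41.3% higher and 46.5% lower. For the same 14 probes the groups did not overlap, against 89.1% of all tested probes. A change of more than 1 was reached by 3 of the 9 genes, against 23.7% of all genes. Only Tapbp among them exceeded 2, against 11.1% of all genes.

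**Figure D1:**
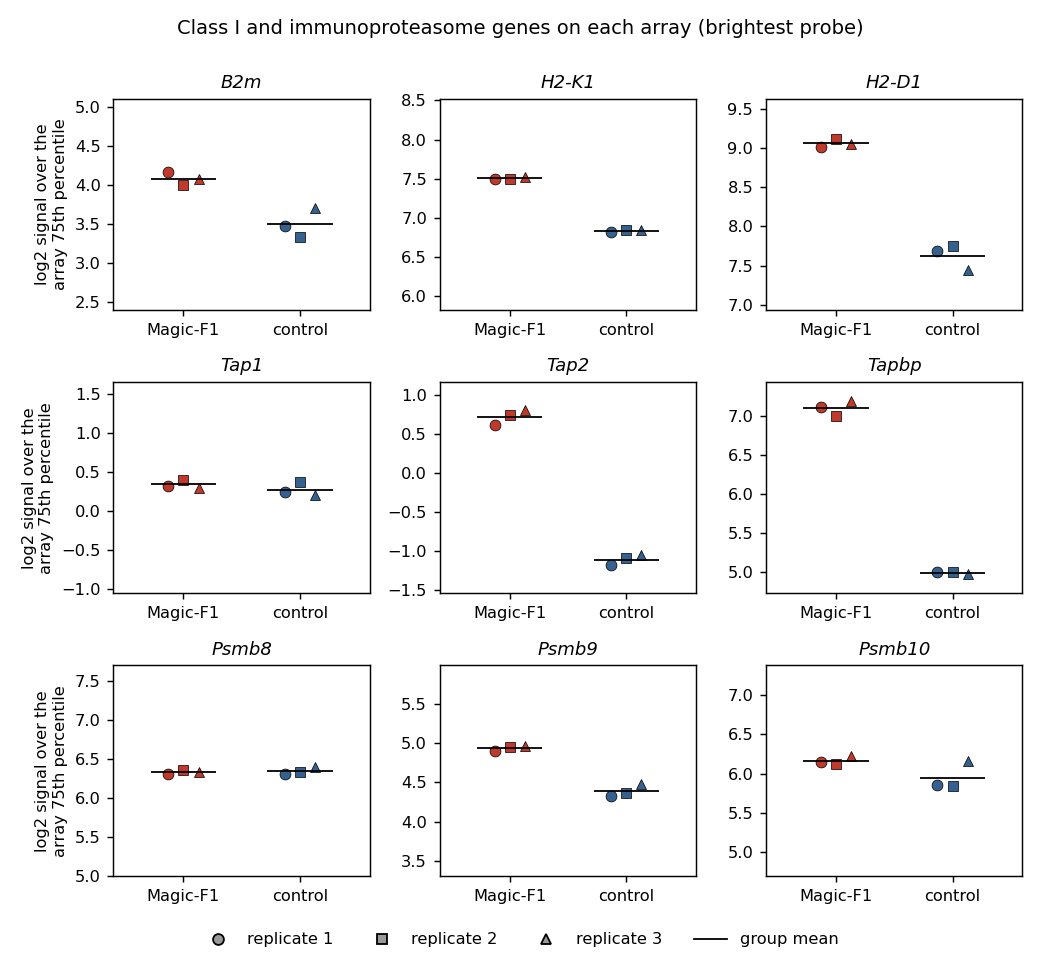
Signal of the brightest probe of each of the 9 genes on every array, as log2 over the 75th percentile of the array (vertical axis), for 3 Magic-F1 (red, left) and 3 control arrays (blue, right). Marker shapes give the replicate, lines the group means, and every panel spans the same log2 range. Tapbp, Tap2 and H2-D1 show the widest gaps, with changes of 2.11, 1.83 and 1.44, while the groups overlap for Tap1, Psmb8 and Psmb10.

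The heavy chains present the peptide and are the polymorphic part of the molecule. H2-D1, by its brightest probe (A_52_P313279), stood at 9.02, 9.11 and 9.06 on the Magic-F1 arrays and at 7.68, 7.75 and 7.45 on the control arrays, as log2 of the signal over the 75th percentile of the array. The lowest Magic-F1 value exceeded the highest control value by far more than the spread within either group. The change was 1.44 (SE 0.09), or 2.71-fold (adjusted p = 1.01e-05). The second H2-D1 probe, A_51_P496996, stood at 8.87, 8.88 and 8.90 on Magic-F1 and 7.82, 7.84 and 7.76 on control arrays. It shares at most 8 bases in a row with other class I probes, but its match to other class I transcripts was not checked. Its change was 1.08 (SE 0.04), or 2.12-fold (adjusted p = 1.63e-06). The remaining probe, A_52_P246277, was not well above background on any array and was not tested.

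H2-K1 was higher by all 4 of its probes, with changes that ran from 0.67 to 2.10. The brightest, A_51_P198434, which is spotted 10 times per array, stood at 7.50, 7.49 and 7.52 on Magic-F1 arrays and at 6.82, 6.85 and 6.84 on control arrays. These groups were tight and separate, with an SD of 0.02 in each (n = 3). The change was 0.67 (SE 0.04), or 1.59-fold (adjusted p = 9.61e-06), and was 1.18 under quantile normalization. A_52_P474242 stood at 6.57, 6.71 and 6.51 in Magic-F1 against 5.48, 5.56 and 5.15 in control cells, a change of 1.20 (SE 0.12). A_52_P50496, the probe with the run shared with H2-Q10, stood at 6.66, 6.73 and 6.71 in Magic-F1 against 4.68, 4.70 and 4.4 in control cells, a change of 2.10 (SE 0.09). The groups overlapped for neither probe. The fourth, A_51_P190499, for which the files give no position, changed by 1.05 (SE 0.11), and by 0.39 with normexp background. Adjusted p for these 3 probes was between 2.01e-06 and 0.000145. The brightest probe lies on the minus strand of chromosome 17 at 34133055 to 34133114 (mm9). The cause of the unequal changes was not tested.

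B2m, the light chain shared by all classical class I molecules, was higher by its 3 probes. A_51_P129012, the brightest, on chromosome 2 at 121978401 to 121978460 (mm9), stood at 4.16, 3.99 and 4.07 on Magic-F1 arrays and at 3.47, 3.33 and 3.70 on control arrays. The groups did not overlap, and control replicate 3 was the control array closest to the Magic-F1 values. The change was 0.58 (SE 0.10), or 1.49-fold (adjusted p = 0.00203). The dimmer probes gave 0.80 (SE 0.12) for A_52_P105594 and 1.23 (SE 0.09) for A_51_P129006, with adjusted p of 0.00107 and 2.34e-05. With normexp background, which adds an offset and pulls dim values together, these 2 changes were 0.39 and 0.33, and that of the brightest probe was 0.61. The order of the 3 B2m probes by size of change therefore depends on the background correction.

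**Figure D2:**
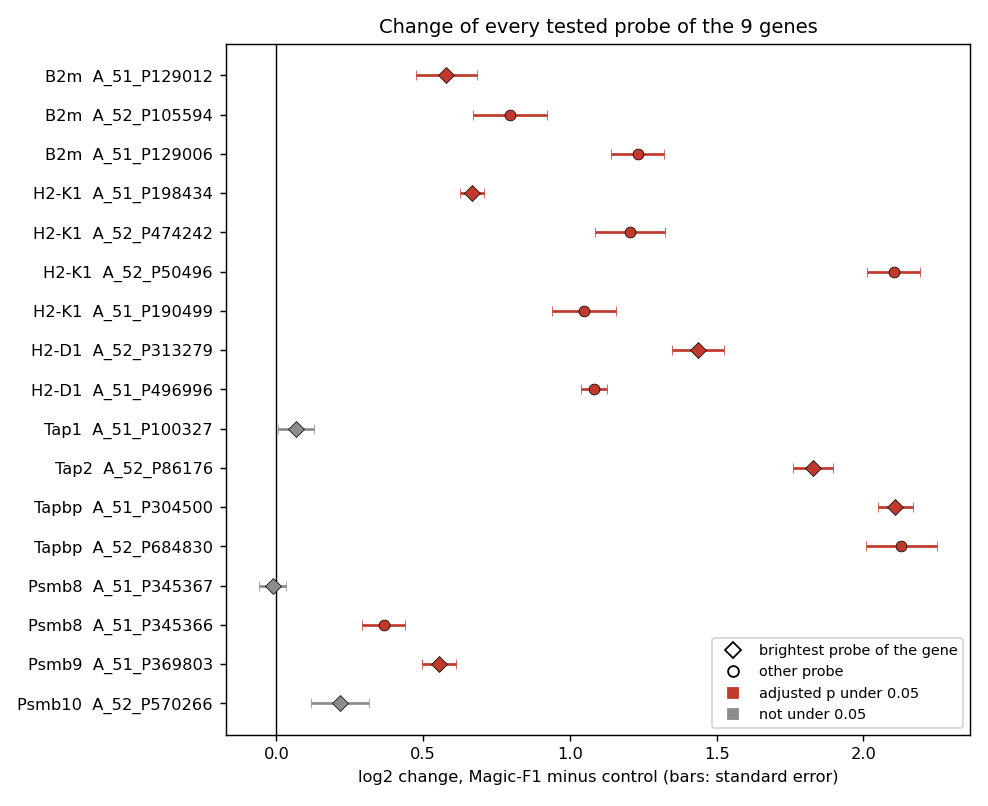
Log2 change, Magic-F1 minus control (horizontal axis), of the 17 tested probes of the 9 genes, with standard errors from limma as bars. Diamonds mark the brightest probe of a gene, and red marks an adjusted p under 0.05. The 4 H2-K1 probes run from 0.67 to 2.10 and the 2 Psmb8 probes differ in their call, while the 2 Tapbp probes coincide at 2.11 and 2.13.

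Of the transporter subunits, Tap2 was higher and Tap1 was not called. Tap2 stood at 0.61, 0.74 and 0.80 on Magic-F1 arrays and at −1.18, −1.09 and −1.05 on control arrays, so that the groups were separated by far more than the spread within either. The change of Tap2 was 1.83 (SE 0.07), or 3.55-fold (adjusted p = 1.04e-06), and 1.49 with normexp background. Tap1, its partner, stood at 0.32, 0.39 and 0.30 on Magic-F1 arrays against 0.24, 0.37 and 0.20 on control arrays, and the groups overlapped. The change of Tap1 was 0.07 (SE 0.06, adjusted p = 0.327). It passed the test only with spike-in scaling, at 0.51 (adjusted p = 0.00057), and its adjusted p over all alternatives ran from 0.00057 to 0.876. Each subunit was measured by 1 probe, in mm9 on the plus strand of chromosome 17 at 34330854 to 34330913 (Tap1) and 34351722 to 34352309 (Tap2).

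Tapbp had the largest change of the 9 genes. The brightest probe, A_51_P304500, at 34066022 to 34066081 on chromosome 17 (mm9), stood at 7.12, 7.0 and 7.19 on Magic-F1 arrays and at 5.01, 5.01 and 4.98 on control arrays. Control values varied little (SD 0.02, n = 3) and lay far below every Magic-F1 value (SD 0.09, n = 3). The change was 2.11 (SE 0.06), or 4.31-fold (adjusted p = 3.75e-07). A_52_P684830, a second probe from another accession of the gene, gave 2.13 (SE 0.12), from 2.81, 2.87 and 2.81 in Magic-F1 against 0.81, 0.87 and 0.43 in control cells.

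Of the immunoproteasome subunits, Psmb9 was higher, while the brightest probes of Psmb8 and Psmb10 were not called. Psmb9, which replaces the caspase-like site subunit Psmb6, stood at 4.90, 4.96 and 4.97 on Magic-F1 arrays and at 4.32, 4.36 and 4.48 on control arrays. These groups did not overlap, and the change was 0.55 (SE 0.06), or 1.47-fold (adjusted p = 0.000148). Psmb10, the trypsin-like site subunit that replaces Psmb7, stood at 6.15, 6.12 and 6.23 in Magic-F1 against 5.85, 5.84 and 6.16 in control cells. Control replicate 3 reached into the Magic-F1 range. The change of Psmb10 was 0.22 (SE 0.10, adjusted p = 0.0801), and without control replicate 3 it was 0.32 (adjusted p = 0.00204). Over all alternatives the adjusted p of Psmb10 ran from 0.000975 to 0.292. The Psmb9 probe lies on chromosome 17 at 34319174 to 34319233 and the Psmb10 probe on chromosome 8 at 108459677 to 108459736, both on the minus strand (mm9).

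The 2 probes of Psmb8, the chymotrypsin-like site subunit that replaces Psmb5, gave different calls although their positions adjoin. Their sequences follow, both from the plus strand of chromosome 17, at 34337771 to 34337830 for A_51_P345367 and 34337828 to 34338152 for A_51_P345366 (mm9).
Psmb8 A_51_P345367: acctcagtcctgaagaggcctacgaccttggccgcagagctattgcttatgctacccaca
Psmb8 A_51_P345366: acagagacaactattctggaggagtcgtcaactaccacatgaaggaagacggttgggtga
A_51_P345367, the brighter, stood at 6.30, 6.35 and 6.33 in Magic-F1 against 6.30, 6.33 and 6.39 in control cells. Its groups overlapped fully, with a change of −0.01 (SE 0.05, adjusted p = 0.813) that turned to 0.29 under quantile normalization (adjusted p = 0.000664) and 0.43 under spike-in scaling (adjusted p = 0.00143). A_51_P345366 stood at 4.77, 4.73 and 4.85 in Magic-F1 against 4.38, 4.33 and 4.55 in control cells. Its groups did not overlap, and its change was 0.37 (SE 0.07, adjusted p = 0.00334). A direction for Psmb8 therefore depends on the probe and on the scaling.

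Within slides, the brightest probes of the 6 called genes kept their direction. On slide 1, with 2 arrays per group, and on slide 2, with 1 per group, H2-D1 changed by 1.47 and 1.37, H2-K1 by 0.68 and 0.64, and B2m by 0.54 and 0.66. Tap2 changed by 1.83 on both slides, Tapbp by 2.16 on slide 1 and 2.0 on slide 2, and Psmb9 by 0.53 on slide 1 and 0.60 on slide 2. With slide as a block, 6 of the 9 genes were again higher and 0 lower. Slide 2 alone allows no test.

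The constitutive subunits that Psmb8, Psmb9 and Psmb10 displace were all lower. Psmb6 stood at 7.42, 7.48 and 7.49 on Magic-F1 arrays and at 8.62, 8.68 and 8.73 on control arrays, a change of −1.21 (SE 0.05), or 2.32-fold lower. Psmb7 stood at 4.10, 4.18 and 4.15 in Magic-F1 against 5.95, 5.89 and 5.91 in control cells, a change of −1.78 (SE 0.05), or 3.42-fold lower. Psmb5 stood at 6.0, 5.92 and 6.0 in Magic-F1 against 7.51, 7.48 and 7.70 in control cells, a change of −1.59 (SE 0.07), or 3.01-fold lower. All 3 were separated well beyond the spread within groups, with adjusted p between 2.63e-07 and 2.51e-06. The offset between 2 probes on 1 array has no meaning by itself, but a shift of that offset between the groups does not depend on how the arrays are scaled to each other by a constant.

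The log2 signal of Psmb9 minus that of Psmb6 was −2.52, −2.53 and −2.52 on the Magic-F1 arrays against −4.30, −4.32 and −4.25 on the control arrays. The difference of 1.77 corresponds to a ratio of the 2 signals 3.41-fold higher in Magic-F1 cells. For Psmb10 minus Psmb7 the values were 2.05, 1.94 and 2.08 in Magic-F1 against −0.10, −0.05 and 0.25 in control cells, a difference of 1.99 or 3.98-fold. For Psmb8 minus Psmb5 they were 0.30, 0.43 and 0.33 in Magic-F1 against −1.21, −1.15 and −1.31 in control cells, a difference of 1.58 or 2.98-fold, and 1.95 with the second Psmb8 probe. In all 3 pairs the groups were apart by several times their SD. The two-sided exact permutation p was 0.1 for each pair and 0.1 adjusted over the 3 pairs, which is the smallest that 3 arrays against 3 allow (20 assignments), so the design cannot reach 0.05. Over the alternatives the differences ran from 1.23 to 1.80 for Psmb9, 1.91 to 2.10 for Psmb10 and 1.47 to 1.76 for Psmb8.

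**Figure D3:**
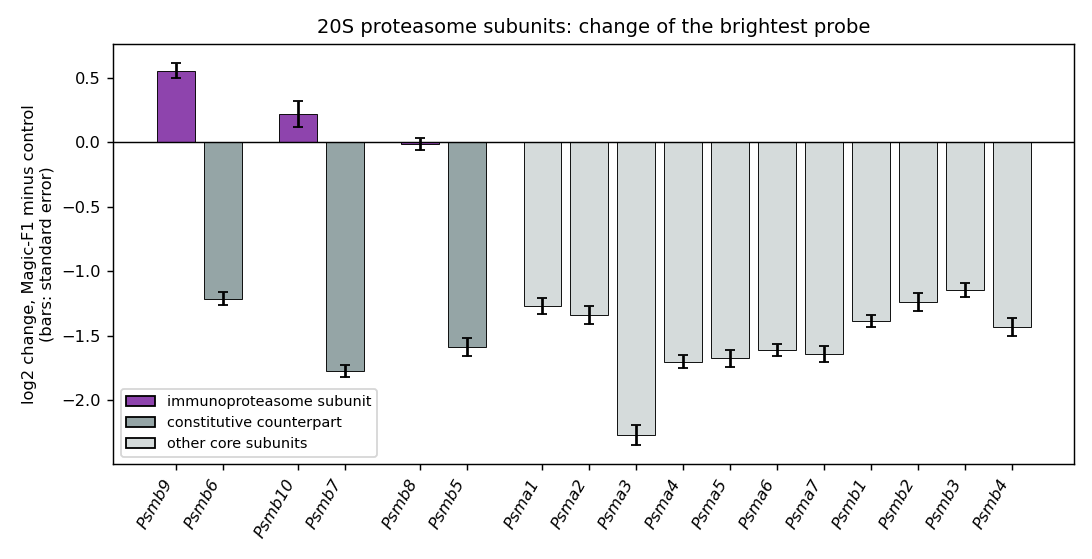
Log2 change, Magic-F1 minus control (vertical axis), of 20S proteasome subunits by their brightest probe, with standard errors from limma as bars. Each immunoproteasome subunit (purple) stands left of its constitutive counterpart (dark grey), followed by the 11 other core subunits (light grey). Every constitutive subunit lies between −2.27 and −1.14, and the 3 immunoproteasome subunits lie between −0.01 and 0.55.

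The fall covered the whole constitutive core. Of the 11 other subunits of the 20S particle 11 were lower and 0 higher, with a median of −1.43, beside 48.6% of all genes called lower and a median of −0.17. The ring subunits Psma3 (−2.27), Psma4 (−1.70), Psma5 (−1.67) and Psma7 (−1.64) fell most. All 11 were also lower under every alternative that gave a count. Among 9 counterparts, activators and regulators 6 were lower, 0 higher and 3 not called, with a median of −0.87 that was −0.43 with spike-in scaling and −0.48 with quantile normalization. Pomp, the chaperone of proteasome assembly, was lower by 1.39 on the log2 scale. Named after their values were seen, Psme1 and Psme2, the interferon-inducible PA28 activator subunits, changed by −0.54 and −0.87. With spike-in scaling these changes were −0.09 (limma adjusted p = 0.34) and −0.43, and with quantile normalization −0.18 and −0.48.

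Other class I heavy chains were mostly higher, in a family whose probes can pick up related transcripts. Of 23 listed genes 11 were tested, of which 8 were higher and 3 lower, against 40.5% and 48.6% of all tested genes. Their median was 0.92. H2-Q7, a Qa-2 antigen gene, was 3.45-fold higher (log2 1.78, SE 0.04), from 7.94, 7.98 and 7.98 in Magic-F1 against 6.18, 6.22 and 6.15 in control cells. H2-Q2 was 3.10-fold higher (log2 1.63, SE 0.05). H2-Q8 went the other way and was 3.69-fold lower (log2 −1.88, SE 0.06). H2-Bl was 9.57-fold lower (log2 −3.26, SE 0.11), and its log2 change was −1.40 with normexp background. H2-Q10, named after its values were seen because a run of its probe recurs in H2-K1, rose by 1.09 with its brightest probe, but another of its probes changed by −3.35, so its direction depends on the probe.

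Class I-like molecules share the fold of the heavy chain without presenting cytosolic peptides in the classical way. Of 9 tested 6 were higher and 3 lower, against 40.5% and 48.6% of all tested genes, with a median of 1.13. The lower ones numbered 0 under spike-in scaling. With normexp background the median was 0.28 and 5 were higher, and without a filter on dim probes it was 0.68. H60a, a stress ligand of the NK receptor NKG2D, rose most, by 3.83 (SE 0.12), and by 2.77 with normexp background. Hfe, the iron regulator that pairs with B2m, rose by 2.27 (SE 0.11), and Fcgrt, the neonatal Fc receptor that also pairs with B2m, by 1.65 (SE 0.05). Ulbp1 rose by 1.68 (SE 0.09), but only by 0.28 with normexp background.

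Of 16 tested chaperones and peptidases that prepare or load peptides, 9 were lower, 5 higher and 2 not called. Over all tested genes 48.6% were lower and 40.5% higher, so these counts lay near the shares of the array. The median was −0.65, and it was −0.21 under spike-in scaling and −0.40 with the mean of all probes. The 4 with the largest changes were all lower: the peptidases Lap3 (−2.17), Thop1 (−1.86) and Blmh (−1.41) and the disulfide isomerase Pdia6 (−1.54). Thop1 is known to destroy peptides that class I could otherwise present. By brightest probes, the change of Tapbp, at 2.11, lay above those of all listed chaperones and peptidases, of which the highest was 0.48. Other probes of this list reached higher, at 2.03 for Lnpep and 1.55 for Uggt1, both named after their values were seen. The brightest probe of Lnpep changed by −0.64 and that of Uggt1 by 0.18, which was not called.

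**Figure D4:**
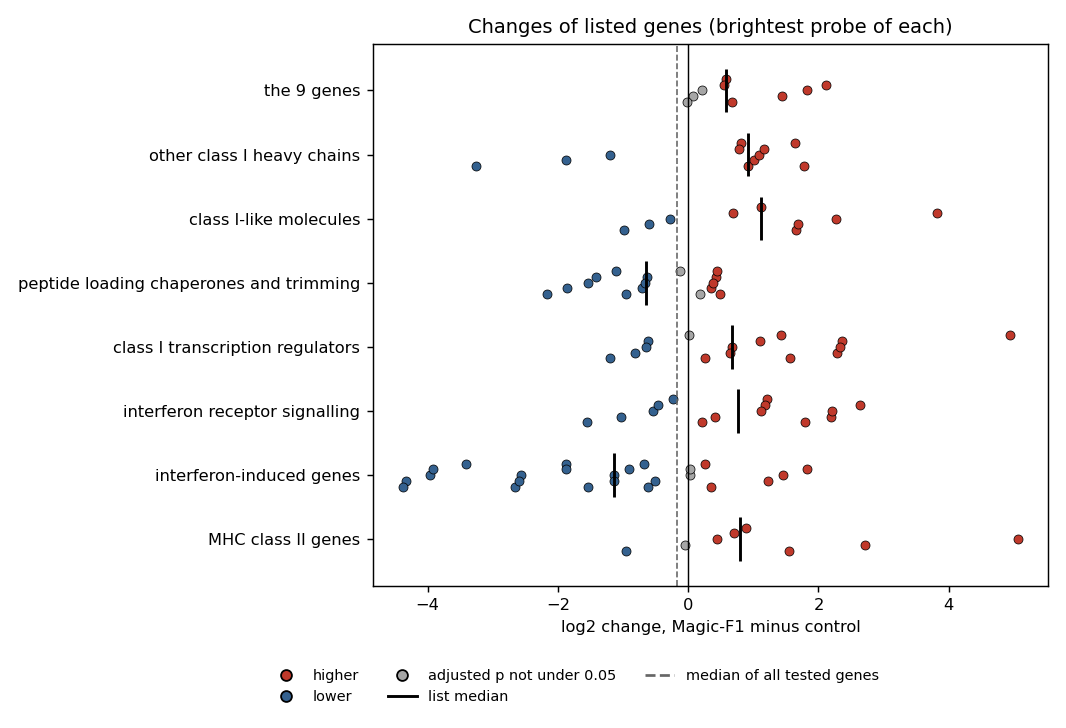
Log2 change, Magic-F1 minus control (horizontal axis), of each tested gene by its brightest probe, for the 9 genes and 7 related gene lists. Red and blue points were called higher and lower at an adjusted p of 0.05, grey points were not called, black bars are list medians, and the dashed line is the median of all tested genes (−0.17). The receptor signalling and interferon-induced lists have medians of opposite sign, 0.77 and −1.14. Their genes overlap, with changes from −1.56 to 2.64 and from −4.37 to 1.83.

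Regulators of class I transcription were mixed. Of 15 tested 10 were higher, 4 lower and 1 not called, where of all tested genes 40.5% were higher and 48.6% lower. The median was 0.67, and it was 1.11 under spike-in scaling and 1.09 with the mean of all probes. Irf8, an interferon regulatory factor of myeloid cells, stood at 5.77, 5.79 and 5.82 in Magic-F1 against 0.84, 0.84 and 0.87 in control cells. That is a change of 4.94 (SE 0.04), 30.8-fold, which moved with the macrophage markers above. Nfya, a subunit of the CCAAT-binding factor NF-Y, rose by 2.28 (SE 0.05) with its brightest probe and by 0.86 with its other probe. The NF-Y subunits Nfyb and Nfyc, named after their values were seen, changed by −0.81 and −0.65. Irf2 and the acetyltransferase Ep300 rose by 2.36 and 2.33, but by 0.79 and 0.49 with normexp background, and both cleared the background on 2 of 3 control arrays. Irf1, the interferon-gamma induced activator of Psmb9 and Tap1, was named after its values were seen. It stood at 4.02, 4.04 and 4.05 in Magic-F1 against 4.03, 3.99 and 4.06 in control cells, a change of 0.01 (SE 0.04, adjusted p = 0.814).

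Receptors and signal transducers of interferons were mostly higher. Of 14 tested 9 were higher and 5 lower, against 40.5% and 48.6% of all tested genes, with a median of 0.77. That median was 1.21 under spike-in scaling and 0.31 without a filter on dim probes. The interferon-gamma receptor chains Ifngr1 and Ifngr2 rose by 1.79 (SE 0.04) and 2.19 (SE 0.06). The kinase Tyk2 rose by 2.64 (SE 0.09) and Pias1 by 2.21 (SE 0.04). Interferon-induced genes other than the 9 mostly went the opposite way. Of 24 tested 17 were lower, 5 higher and 2 not called (all tested genes: 48.6% lower, 40.5% higher), with a median of −1.14. That median was −0.64 with normexp background and −0.70 under spike-in scaling. Among the higher ones, Oas2, named after its values were seen, rose most, by 1.83 (SE 0.05). The chemokine Cxcl10 was 20.7-fold lower (log2 −4.37, SE 0.07) and the ubiquitin-like Isg15 15.7-fold lower (log2 −3.97, SE 0.07). Iigp1, an interferon-gamma induced GTPase, was 15.2-fold lower and Ifit1 20.1-fold lower, Ifit1 clearing the background on 2 of 3 Magic-F1 arrays. With normexp background the log2 changes were −2.71 for Cxcl10, −2.02 for Ifit1 and −3.27 for Iigp1.

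Of 8 tested MHC class II genes, which serve presentation to helper T cells, 6 were higher, 1 lower and 1 not called. Over all tested genes 40.5% were higher and 48.6% lower. The class II median was 0.79, and it was 0.40 with normexp background and 1.23 under spike-in scaling. H2-DMb1, a chain of the peptide editor of class II, rose by 5.06 (SE 0.06), and by 4.38 with normexp background. H2-Aa rose by 2.72 and H2-Ob by 1.54, both clearing the background on 1 of 3 control arrays, and with normexp background they changed by 0.53 and 0.02, the H2-Ob call being lost (adjusted p = 0.765). H2-Eb1 was lower by 0.96 on the log2 scale. Summed class II levels were 14.7 to 15.9 times the 75th percentile on Magic-F1 arrays and 3.73 to 3.83 times on control arrays. Most of that gap came from H2-DMb1, with a mean log2 level of 3.29 on Magic-F1 and −1.77 on control arrays. Cd74, the next highest on Magic-F1 arrays, stood at 1.57 and 0.87. H2-Ab1 was called higher at 0.45, but its 2 other probes changed by −0.85 and −0.71. Cd74 and H2-Ab1 were named after their values were seen.

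By position, 7 of the 9 genes lie in the MHC on chromosome 17, while B2m is on chromosome 2 and Psmb10 on chromosome 8. Psmb9, Tap1, Psmb8 and Tap2 are packed into 34.3 kb, in that order (RefSeq, GRCm38.p6). Along this cluster the changes of the brightest probes were 0.55, 0.07, −0.01 and 1.83, and the differences between neighbours were not tested. Psmb9 and Tap1 are transcribed away from each other, with 225 bases between their starts, at chr17:34187331-34187555, shown here on the plus strand because 1 shared stretch lies upstream of a called and an uncalled gene.
Psmb9 and Tap1: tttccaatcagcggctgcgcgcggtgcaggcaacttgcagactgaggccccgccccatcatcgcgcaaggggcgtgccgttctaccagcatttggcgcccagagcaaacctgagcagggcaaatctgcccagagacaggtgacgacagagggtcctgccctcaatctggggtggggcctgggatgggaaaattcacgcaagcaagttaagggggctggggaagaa
No match of the 3 motifs below was found in these letters.

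Promoter windows from RefSeq (GRCm38.p6, 250 bases before to 50 after the start) matched 8 of the 9 genes. Searched on both strands among 32851 windows, the core of the interferon-stimulated response element (GAAA, any 2 bases, GAAA) was in 3.44% of all windows and in that of B2m alone among the 8. Only exact patterns were searched here, so an element that departs from its pattern in any fixed base was not counted, and a window without a match may still hold one. The gamma-activated sequence (TTC, any 3 bases, GAA) was in 8.30% of all and in that of Psmb8, 97 to 89 bases before the start. The kappa B site, in the form shown in capitals for H2-K1 below, was in 0.107% of all, which is 35 windows, and in those of H2-K1 and H2-D1. No matches of different motifs overlapped in the 8 windows. The 250 bases before the start are given for the genes with a match whose change was called, with the match in capitals, at chr17:34000348-34000597 on the minus strand for H2-K1, chr17:35262844-35263093 on the plus strand for H2-D1 and chr2:122147437-122147686 on the plus strand for B2m.
H2-K1: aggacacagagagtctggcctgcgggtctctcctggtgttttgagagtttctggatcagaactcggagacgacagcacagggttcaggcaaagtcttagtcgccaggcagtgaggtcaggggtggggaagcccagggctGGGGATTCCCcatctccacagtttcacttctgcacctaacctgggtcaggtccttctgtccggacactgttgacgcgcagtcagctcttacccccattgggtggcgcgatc
H2-D1: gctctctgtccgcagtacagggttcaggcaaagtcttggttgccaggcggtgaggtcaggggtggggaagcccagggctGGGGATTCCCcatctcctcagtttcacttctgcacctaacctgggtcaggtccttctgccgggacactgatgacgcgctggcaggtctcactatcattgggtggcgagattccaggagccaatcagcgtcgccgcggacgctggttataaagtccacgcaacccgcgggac
B2m: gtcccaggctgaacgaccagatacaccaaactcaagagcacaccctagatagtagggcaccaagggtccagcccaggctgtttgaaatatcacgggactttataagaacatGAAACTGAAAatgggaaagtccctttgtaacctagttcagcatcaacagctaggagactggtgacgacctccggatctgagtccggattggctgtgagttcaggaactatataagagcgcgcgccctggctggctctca
The matches stand 111 to 102 bases before the start of H2-K1 (the outer of 2 starts in the table), 171 to 162 before that of H2-D1 and 139 to 130 before that of B2m. A match describes the letters and is not evidence of binding.

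For each of the 9 genes, the gene outside the group with the most similar profile was found by the root mean square distance of centred log2 values over the 6 arrays, among 12878 genes. It was Tbc1d22b for H2-D1 (distance 0.03), Osbpl1a for H2-K1 (0.01) and Smim27 for B2m (0.02). For the transport and loading genes it was Eif4enif1 for Tap1 (0.02), Slc66a1 for Tap2 (0.03) and Osgin1 for Tapbp (0.03). For the immunoproteasome it was Clta for Psmb8 (0.01), Bak1 for Psmb9 (0.02) and Crip1 for Psmb10 (0.02). The log2 changes of these genes lay close to those they resembled, with 1.42 for Tbc1d22b beside 1.44 for H2-D1 and 2.14 for Osgin1 beside 2.11 for Tapbp. The arrays compared are the 6 that the changes come from.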

How the data were processed

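Total RNA of 6 samples was measured on single-colour Agilent arrays of design 014868. The deposited intensity of a spot is its processed signal, background-subtracted by Agilent Feature Extraction 10.5.1.1 and not normalized between arrays, per the file headers, which also give flags and mm9 probe positions. The authors also deposited a log2 value per spot and array. That table equalled the log2 processed signal for 4 arrays and held other values for both arrays numbered 1 (they differ with an SD of 0.456 in Magic-F1 and 0.472 in control), so it was used only as an alternative. Its column medians were 3.53, 3.50 and 3.59 for Magic-F1 and 3.32, 3.35 and 3.40 for control replicates 1, 2 and 3. Its scale is log2 without centring, and how its columns numbered 1 were made is unknown.

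Groups came from the source names of the labels. Without control spots and with outlier spots (59 to 89 per array) set to missing, log2 signals were reduced by the 75th percentile of each array. Between 49.2% and 52.0% of spots were well above background and 0 were saturated. Spots of a probe were averaged, and a probe was tested if well above background on all 3 arrays of a group. Of 41174 probes, 25097 were named through their RefSeq accession and 6333 and 1640 through a symbol and a synonym in the GRCm38.p6 table, and 8104 kept the name of the file. A gene stands by its brightest tested probe on average. Groups were compared with limma 3.58.1 in R 4.3.3 (lmFit, eBayes, group only), two-sided, with Benjamini-Hochberg adjustment over 21186 probes. Genes not above background in a group are given as at least N-fold, against whichever is higher on an array, the dimmest signal that clears the background or the signal of the probe itself. On simulated arrays of 21183 probes with 200 changed, the test recovered 58% of changes of 0.5, 78% of 1, 90% of 2 and 92% of −1, with 11 false calls. Changes were added after scaling and to few probes, whereas 87.7% of tested probes were called in the data. These rates therefore check the procedure and do not give its error rates on these arrays.

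Named are the 9 genes with all their probes, Psmb5, Psmb6 and Psmb7, up to 4 genes of each list (called ones first, then by size of change) and the gene most alike each of the 9. Others are marked as named after their values were seen. The genes and lists were chosen with earlier results of these data known. Replicate numbers were not used to pair the samples in the main comparison. The alternatives covered background, scaling, filters, the authors' table, variance model, slide, replicate block, probe choice and leaving out arrays.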

Additional observations from a re-analysis of the deposited data

How the results depend on the processing

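Over 21 alternatives, of which 7 leave out arrays by replicate, B2m, H2-K1, H2-D1, Tap2, Tapbp and Psmb9 kept their direction in all. They stayed past the threshold in the 20 that allow a test. The number of the 9 genes called higher was 6 to 9 and of those called lower 0 throughout. It was 9 with spike-in scaling, 8 with quantile normalization and 7 with normexp background, with median scaling, with a trend in eBayes, with the mean of all probes and without control replicate 3. Deviations of samples sharing a replicate number correlated weakly (−0.003, 0.108 and 0.069). For samples with unlike numbers the correlations ran from −0.115 to 0.048. With a replicate block, 18547 probes were called against 18590 without, and 7 of the 9 genes were higher, Psmb10 being added (adjusted p = 0.0445). Psmb10 was also called with normexp background (0.29), median scaling (0.35), quantile normalization (0.45) and spike-in scaling (0.66).

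The log2 change of Psmb8 (−0.01) turned to 0.037 with normexp background, 0.12 with median scaling, 0.29 with quantile normalization and 0.43 with spike-in scaling. It was 0.011 in the authors' table, 0.023 on slide 2 and 0.18 as the mean of both probes. Leaving out arrays by replicate gave −0.031 to 0.013. Spike-in scaling turned the median of all tested genes to 0.27 and that of fibro-adipogenic progenitor markers to 0.24. It left 0 class I-like molecules, 2 transcription regulators, 2 interferon signalling genes, 0 macrophage markers and 3 fibro-adipogenic markers lower, and 3 proteasome counterparts and activators higher. Quantile normalization and the mean of all probes each left 0 macrophage markers lower and 1 proteasome counterpart or activator higher, and the mean of all probes 2 class II genes lower. Normexp background left 1 lymphocyte and 1 endothelial marker higher. Requiring all 6 arrays above background, which leaves fewer genes tested, gave 5 neutrophil, 1 lymphocyte and 1 endothelial marker lower, 0 lymphocyte markers higher and an endothelial median of 0.64. The cause of the other differences was not tested. For the alternative without replicate 1 of both groups, added after seeing that the authors' table differs there, 6 of the 9 genes were higher. Dim probes, such as 2 of B2m and 1 of H2-K1, moved with the background correction.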

Other observations

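Markers of other cell types were read for the cells a muscle preparation could hold. Beside the counts in this section, 40.5% of all tested genes were called higher and 48.6% lower. Of 9 adipocyte markers 9 were higher in Magic-F1 cells, with a median log2 change of 4.03. The lipid droplet protein Cidec rose by 6.21 (5.25 with normexp background), carbonic anhydrase Car3 by 5.83, the adipokine Cfd by 5.16, and Retn was at least 15.8-fold higher (log2 1.70 with normexp background). Of 9 endothelial markers 7 were lower and 2 higher, with a median of −4.55 that was −0.97 with normexp background. Their summed level went the other way, at 16.6 to 18.1 times the 75th percentile on Magic-F1 and 9.84 to 10.2 times on control arrays. Named after their values were seen, the 2 higher ones were Vwf, by 3.58 (SE 0.05), and Kdr, by 0.64, which was −0.03 with normexp background (adjusted p = 0.529). Cldn5 changed by −6.78 and was above background on 1 of 3 Magic-F1 arrays, Emcn changed by −5.70, and Robo4 and Sox18 were at least 18.4-fold and 15.6-fold lower. With normexp background these 4 were at −3.68, −4.25, −1.81 and −1.70. Of 10 fibro-adipogenic progenitor markers 6 were lower, 3 higher and 1 not called, with a median of −0.20 (−0.42 without control replicate 3), with Ly6a at −4.41, Pi16 at −3.84 (−2.96 with normexp background), Dcn at −1.07 and Lum at 0.72.

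Among leukocyte markers, those of macrophages rose most, with a median of 4.27, led by Cx3cr1 (7.42, and 5.06 with normexp background), C1qc (6.86), Csf1r (6.08) and Cd68 (5.80). Neutrophil markers had a median of −9.18 (−5.58 with normexp background), with S100a9 at least 18614-fold and Camp at least 340-fold lower, Mpo at −10.24 and Ctsg at −9.33. With normexp background the log2 changes were −11.46 for S100a9, −5.61 for Camp, −7.97 for Mpo and −7.14 for Ctsg. Of 9 tested lymphocyte and NK markers 5 were lower, 2 higher and 2 not called, with a median of −0.56 (−0.12 under spike-in scaling) and summed levels of 0.88 to 0.93 on Magic-F1 and 1.57 to 1.82 on control arrays. Nkg7 and Ms4a1 were at least 22.3-fold and 5.78-fold lower, Cd3d changed by −3.63 and cleared the background on 1 of 3 Magic-F1 arrays, so that its size rests on values near background, and Klrb1c was at least 6.47-fold higher. With normexp background these were at −2.00, −0.99, −0.85 and 0.65. Of the muscle genes, Fgfr4 changed by −5.55 (−4.76 with normexp background), Cdh15 by −4.84, Myog by −4.65 and Myod1 by −4.21.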
